A study of Mus musculus with 6 samples.

Results

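Heat shock chaperones are proteins that help other proteins fold, keep them from clumping and pass damaged ones on for degradation. HSP70 proteins bind short stretches of unfolded chains in a cycle driven by ATP, which HSP40 partners such as Dnaja1 start and nucleotide exchange factors such as Hsph1 end. HSP90 proteins act later, on nearly folded clients such as kinases and steroid receptors, and in mitochondria Hspd1 (HSP60) forms a barrel that Hspe1 (HSP10) closes as a lid. Hsf1 is the transcription factor that binds heat shock elements in the promoters of many of these genes and raises their transcription under proteotoxic stress.

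The genes described here are 10 of the 41549 in the deposited table, chosen by symbol as cytosolic and mitochondrial heat shock chaperones with their regulator. They are Hspa1a, Hspa1b, Hspa8, Hsp90aa1, Hsp90ab1, Hsph1, Dnaja1, Hspd1, Hspe1 and Hsf1. All 10 passed the filter on low counts, and each had at least 10 reads in every library. Bone marrow cells of C57Bl/6 N mice were grown into macrophages (Mφs) with M-CSF, transfected, and then driven to the M2 state by IL-4 plus IL-13. In the αGlu group (3 libraries) the transfected oligonucleotide was an antisense inhibitor of 5′tRF-Glu(CTC), the 5′ part of a cleaved glutamate tRNA, and in the Ctr group (3 libraries) it was a control inhibitor. Both groups were therefore transfected and cytokine-treated, and no untransfected or heat-treated cells were compared. A bulk library averages over its cells, so that fewer cells with a transcript and less transcript per cell cannot be told apart.

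The antisense and the stretch it was designed against are shown because they are the only difference in treatment between the groups. Capitals in the target mark the bases that the antisense pairs with.
antisense: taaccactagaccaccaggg
target stretch: tCCCTGGTGGTCTAGTGGTTA
The longest run of this pairing stretch found in any annotated transcript of a member was 6 bases in Hspe1 and 9 bases in Hspa1b and Hsp90ab1, out of 20, and the other members lay between these.

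Total counts ranged from 17912831 to 30386653 per library. αGlu 1 stood apart from its group: its log2 expression over the genes tested correlated at a Pearson r of 0.929 with αGlu 2 and αGlu 3 each, and at 0.966 to 0.982 with the Ctr libraries, whereas αGlu 2 and αGlu 3 correlated at 0.992. The calls, and the changes that leaving it out moved most, are given with and without it. All 9 macrophage markers were above 1 CPM on average, a scale on which reads are divided by the effective size of the library. Of the other cell types checked, dendritic cell, lymphocyte, fibroblast and mast cell or basophil markers had none above this level, and 3 of 7 neutrophil markers did. The summed level of the neutrophil list was 106 to 160 CPM in the Ctr libraries and 186 to 609 CPM in αGlu, with 1 of its 7 markers at 0 reads in every library. The part of this difference in the results below was not tested.

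Promoter sequence was available for 6 of the 10 genes, in the RefSeq table for GRCm38.p6. GRCm38 is also the build named in the submitters' processing notes. A heat shock element is built from inverted GAA units, so the 250 bases before each start were searched for GAANNTTC and TTCNNGAA. Each motif is its own reverse complement, which covers both strands, and the 2 overlap wherever 3 units follow each other. Of all 32851 promoter windows, 12.8% held at least 1 of these motifs. A run of 3 units (GAANNTTCNNGAA or TTCNNGAANNTTC) was present in 0.466%. Only exact matches within this distance were counted, so a window without a hit may still hold an element. The same search was made for 3 related genes. It found 0 motifs before the start of Bag3, a cofactor described below, 0 before either start of the HSP40 gene Dnajb1, and 2 before that of Hspb1. The member promoters below are shown because they differ in the motifs found. Motifs are in capitals, and each stretch reads 5′ to 3′ on the strand of its gene. Stretches end before the start site where stated.
Hspa1a, chr17:34972157-34972286, minus strand, up to the start: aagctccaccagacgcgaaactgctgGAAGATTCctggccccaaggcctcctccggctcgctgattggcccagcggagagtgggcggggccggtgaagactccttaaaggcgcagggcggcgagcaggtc
Hspa1b, chr17:34959239-34959368, minus strand, up to the start: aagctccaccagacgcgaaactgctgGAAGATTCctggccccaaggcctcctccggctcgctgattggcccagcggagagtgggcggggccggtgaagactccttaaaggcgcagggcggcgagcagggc
Hspe1, chr1:55087933-55088147, plus strand, the whole gap between its start and a start of Hspd1: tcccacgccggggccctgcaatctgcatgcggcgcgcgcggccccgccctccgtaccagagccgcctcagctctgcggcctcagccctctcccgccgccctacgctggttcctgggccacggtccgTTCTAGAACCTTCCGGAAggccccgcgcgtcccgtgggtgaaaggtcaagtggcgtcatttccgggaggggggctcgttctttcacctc
Dnaja1, chr4:40722318-40722377, plus strand, around the motif: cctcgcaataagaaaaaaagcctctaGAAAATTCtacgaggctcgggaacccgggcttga
Hsph1, chr5:149636352-149636411, minus strand, around the motif: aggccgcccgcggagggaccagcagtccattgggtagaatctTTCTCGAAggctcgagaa

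The Hspa1a and Hspa1b windows were identical at 247 of the 250 bases before the start, and their single motif began 104 bases before it in both. Counted from 1 at the 5′ end of the window, with the Hspa1a base first, they differed by C44T, T47C and T249G. Hspe1 and Hspd1 are transcribed in opposite directions from 1 shared stretch of 215 bases, which held 3 overlapping motifs and thus a run of more than 3 units. A second annotated start of Hspd1, on the other side of the Hspe1 start, had no motif before it. Dnaja1 had a motif before 1 of its 3 annotated starts, 124 bases away. Both Hsph1 starts had the same motif before them, at 33 and 54 bases. Promoters of Hspa8, Hsp90aa1, Hsp90ab1 and Hsf1 are named here without sequence.

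Levels between genes were compared on the deposited TPM scale, which corrects for transcript length. In the Ctr libraries the constitutive HSP70 Hspa8 was highest, at 1136 ± 26.9 TPM (SD, n = 3), and ranked 96 among 16554 genes with a TPM above 0. The constitutive HSP90 Hsp90ab1 followed at 1026 ± 32.5 TPM, and the ranges of these 2 genes, 1118 to 1167 and 1001 to 1063 TPM, did not overlap. Hsp90aa1 (213 ± 13.1 TPM) and Hspd1 (196 ± 10.9 TPM) came next and overlapped in range. Hspe1 had 117 ± 7.75 TPM, Dnaja1 55.2 ± 3.10 TPM, Hsph1 29.1 ± 3.43 TPM and Hsf1 11.98 ± 0.980 TPM. Hspa1b (4.53 ± 3.81 TPM) and Hspa1a (3.04 ± 1.23 TPM) were lowest and their ranges overlapped. The stress-inducible HSP70 pair was thus low in these cells, at 0.228% to 1.01% of the summed TPM of Hspa1a, Hspa1b and Hspa8 in Ctr and 0.168% to 0.236% in αGlu.

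The comparison of αGlu with Ctr asks how blocking the tRNA fragment before M2 polarization changed the transcriptome. No member was called in the edgeR quasi-likelihood test, where a call needed a log2 fold change beyond 1 in either direction and a Benjamini-Hochberg adjusted p under 0.1. Across all 11933 genes tested 0% were called, the smallest adjusted p being 0.149, although 2943 genes had an unadjusted p under 0.05. At that unadjusted limit 2 members were lower in αGlu, Hspa1a and Hspa1b, and 0 were higher, where 11.9% of all genes tested were lower and 12.7% higher. With all 6 libraries, 3 members lay lower in αGlu without overlap between the groups (Hspa1a, Hspa8 and Hsp90aa1) and 2 higher (Dnaja1 and Hspe1), where the background was 15.9% lower and 14.2% higher. The median log2 fold change was -0.10 over the 10 members and 0.02 over all genes tested.

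**Figure D1:**
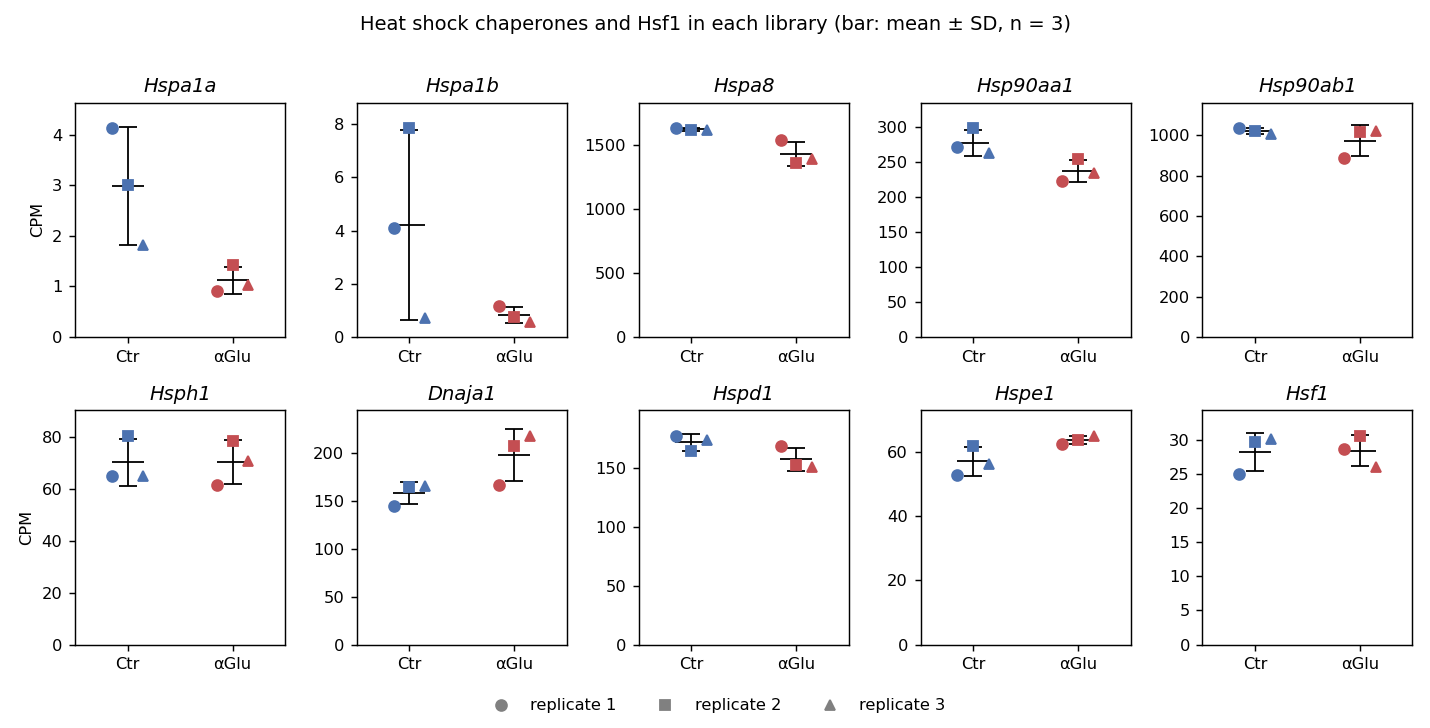
Level of each gene in CPM (scaled with TMM factors) in the 3 Ctr and 3 αGlu libraries, with the mean and SD as bars and the replicate number as the marker shape. Hspa1a, Hspa8 and Hsp90aa1 were lower in αGlu and Dnaja1 and Hspe1 higher without overlap, and Hspa1b ranged from 0.696 to 7.86 CPM in Ctr.

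Hspa1a and Hspa1b encode nearly identical stress-inducible HSP70 proteins and lie close together on chromosome 17 (GRCm38, minus strand, 34969190 to 34972156 and 34956436 to 34959238). Hspa1a stood at 4.13, 3.01 and 1.81 CPM in Ctr 1, 2 and 3 and at 0.918, 1.42 and 1.03 CPM in αGlu 1, 2 and 3. All 3 αGlu libraries were below all 3 Ctr libraries, and the log2 fold change was -1.40 ± 0.37 (SE; edgeR quasi-likelihood test, adjusted p = 0.156). Hspa1b stood at 4.09, 7.86 and 0.696 CPM in the Ctr libraries and 1.15, 0.756 and 0.550 CPM in αGlu. Here Ctr 3 was as low as the αGlu libraries, so the groups overlapped, and the fitted log2 fold change of -2.39 ± 0.84 (edgeR quasi-likelihood test, adjusted p = 0.176) rested on Ctr 1 and Ctr 2. Without Ctr 2 the log2 fold change of Hspa1b was -1.57.

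The 2 copies cannot be counted fully apart. Of the 100-base windows along the Hspa1a transcript, 47.1% also occurred in Hspa1b, and 49.9% of those of Hspa1b occurred in Hspa1a, while how reads that fit both were assigned is not given in the sources used here. The deposited reads of Hspa1a numbered 91, 72 and 39 in Ctr and 16, 45 and 28 in αGlu. Those of Hspa1b numbered 90, 188 and 15 in Ctr and 20, 24 and 15 in αGlu. The share of Hspa1b in the reads of both ranged from 27.8% (95% Clopper-Pearson interval 16.5% to 41.6%, counting error only) in Ctr 3 to 72.3% (66.4% to 77.7%) in Ctr 2, wider than among the αGlu libraries, at 34.8% to 55.6%. On the TPM scale this share averaged 51.2% ± 22.2 over the Ctr and 43.1% ± 12.02 over the αGlu libraries (SD, n = 3 each), a difference within the spread of the libraries (exact permutation test, two-sided, p = 0.7, adjusted over 3 ratios 0.7). Summing the 2 copies gave 8.22, 10.9 and 2.51 CPM in the Ctr libraries and 2.06, 2.17 and 1.58 CPM in αGlu. The summed groups did not overlap, with a log2 fold change of -1.89 ± 0.53 (edgeR quasi-likelihood test, adjusted p = 0.159).

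**Figure D2:**
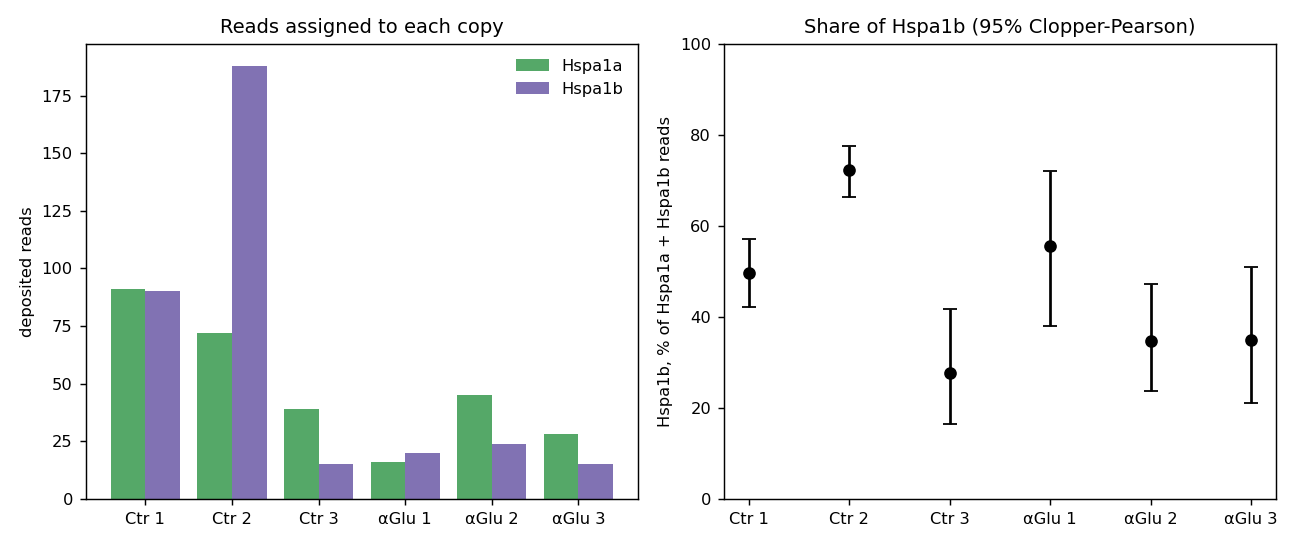
Left, deposited reads of Hspa1a and Hspa1b in each library. Right, the share of Hspa1b in the reads of both copies in percent, with 95% Clopper-Pearson intervals; the share ran from 27.8% in Ctr 3 to 72.3% in Ctr 2.

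Hspa8 encodes the constitutive HSP70 of the cytosol, which also serves clathrin uncoating and chaperone-mediated autophagy (chromosome 9, 40800984 to 40810087, plus strand). It stood at 1631, 1613 and 1617 CPM in the Ctr libraries and 1534, 1358 and 1386 CPM in αGlu. The Ctr libraries lay within a narrow band and all αGlu libraries were below it, αGlu 1 nearest, but the log2 fold change was only -0.18 ± 0.13 (edgeR quasi-likelihood test, adjusted p = 0.397). Of its 100-base windows, 63.4% also occurred in transcripts of 9 other annotated genes, none of which matched a row of the table used here. Counted in the same way, 56.5% of the Hspa1a windows occurred in another gene, as did 47.5% for Hsp90aa1, 26.9% for Hspd1, 24.04% for Dnaja1 and 22.4% for Hspe1, and 0% for Hsp90ab1, Hsph1 and Hsf1. Some of these other genes had reads of their own: Dnaja1 shared 9.22% of its windows with Smu1, which had 10894 reads over the 6 libraries, Hspe1 shared 1.93% with Hspd1, and Hspa1a shared 4.67% each with Hspa1l and Gm10501, which had 200 reads together. Windows were matched on both strands, so these shares include genes that overlap on opposite strands, as Hspe1 and Hspd1 do near their starts. Whether the Smu1 match lay on the same strand was not separated. The libraries were stranded, but whether the counting used the strand is not given in the sources used here. How reads from these other genes were counted was not tested. The levels of Hspa1a, Hspa1b, Hspa8, Hsp90aa1, Hspd1, Dnaja1 and Hspe1 are therefore uncertain. These shares do not bound by how much, since that also depends on the reads of the other genes.

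Dnaja1, an HSP40 protein that delivers clients to HSP70 and stimulates its ATPase (chromosome 4, 40722150 to 40737149, plus strand), had the highest fold change among the members. It stood at 145, 165 and 165 CPM in the Ctr libraries and 167, 208 and 218 CPM in αGlu. αGlu 1 was barely above the highest Ctr library, and αGlu 2 and αGlu 3 were clearly above. The log2 fold change was 0.32 ± 0.13 (edgeR quasi-likelihood test, adjusted p = 0.203). Hsph1, an HSP110 protein that exchanges the nucleotide of HSP70 (chromosome 5, 149614287 to 149636376, minus strand), stood at 65.0, 80.7 and 65.1 CPM in the Ctr libraries and 61.7, 78.7 and 70.7 CPM in αGlu. The groups overlapped throughout, with a log2 fold change of 0.00 ± 0.13, whose sign turned under 6 alternatives (edgeR quasi-likelihood test, adjusted p = 0.991).

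Hsp90aa1, the inducible cytosolic HSP90 (chromosome 12, 110690605 to 110702728, minus strand), stood at 271, 298 and 263 CPM in the Ctr libraries and 223, 255 and 234 CPM in αGlu. All αGlu libraries were below all Ctr libraries on this scale, though the ranges overlapped on the TPM scale, and the log2 fold change was -0.22 ± 0.10 (edgeR quasi-likelihood test, adjusted p = 0.231). Hsp90ab1, the constitutive one (chromosome 17, 45567775 to 45573271, minus strand), stood at 1036, 1022 and 1004 CPM in the Ctr libraries and 884, 1015 and 1019 CPM in αGlu. Only αGlu 1 was below the Ctr range, and the log2 fold change was -0.07 ± 0.13 (edgeR quasi-likelihood test, adjusted p = 0.739). It was -0.0094 without αGlu 1 and turned to 0.019 when scaled by library size alone. Hsp90aa1 made up 16.6%, 18.2% and 16.7% of the summed TPM of both in Ctr and 16.1%, 16.1% and 14.9% in αGlu. All 3 αGlu shares were lower, by 1.46 percentage points on average: 17.2% ± 0.912 in Ctr and 15.7% ± 0.690 in αGlu (SD, n = 3 each; exact permutation test, two-sided, p = 0.1, the smallest that 3 libraries against 3 can give, adjusted over 3 ratios 0.3). The difference was -0.931 percentage points without Ctr 2 and ranged from -1.73 to -0.931 with each library left out.

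Hspd1 and Hspe1 form the mitochondrial chaperonin and are neighbours on chromosome 1 (55077835 to 55088243, minus strand, and 55088132 to 55091307, plus strand), sharing the promoter printed above. Hspd1 stood at 178, 164 and 174 CPM in the Ctr libraries and 169, 152 and 151 CPM in αGlu. αGlu 1 fell inside the Ctr range, and the log2 fold change was -0.13 ± 0.09 (edgeR quasi-likelihood test, adjusted p = 0.381). Hspe1 stood at 53.0, 62.1 and 56.4 CPM in the Ctr libraries and 62.6, 63.7 and 65.3 CPM in αGlu. All αGlu libraries were above all Ctr libraries, αGlu 1 by less than 1 CPM, with a log2 fold change of 0.16 ± 0.08 (edgeR quasi-likelihood test, adjusted p = 0.262). The fitted changes of the 2 neighbours thus had opposite signs. The log2 ratio of Hspe1 to Hspd1 TPM was -0.90, -0.56 and -0.78 in Ctr and -0.59, -0.42 and -0.37 in αGlu. It was higher in αGlu by 0.29 on average, with αGlu 1 below Ctr 2 (exact permutation test, two-sided, p = 0.2, adjusted over 3 ratios 0.3).

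**Figure D3:**
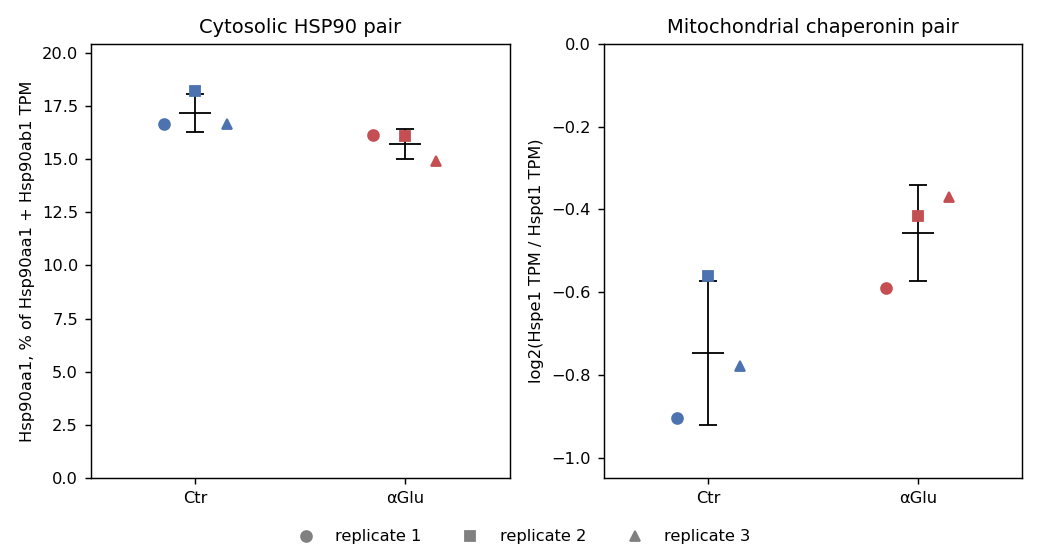
Left, Hsp90aa1 in percent of the summed TPM of Hsp90aa1 and Hsp90ab1. Right, the log2 ratio of Hspe1 to Hspd1 TPM. Points are libraries and bars the mean ± SD (n = 3); the Hsp90aa1 shares did not overlap between groups and the ratios did.

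Hsf1 itself (chromosome 15, 76477422 to 76501913, plus strand) stood at 25.03, 29.6 and 30.02 CPM in the Ctr libraries and 28.6, 30.6 and 25.97 CPM in αGlu. The groups overlapped, with a log2 fold change of 0.01 ± 0.11, whose sign turned when Ctr 1, αGlu 1 or αGlu 2 was left out (edgeR quasi-likelihood test, adjusted p = 0.965). The activity of Hsf1 is set largely by its release from chaperones, its trimerization and its phosphorylation, which mRNA levels do not measure.

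Without αGlu 1, 2 members were called, both lower: Hspa1a with a log2 fold change of -1.28 (edgeR quasi-likelihood test, adjusted p = 0.0471) and Hspa1b with -2.68 (edgeR quasi-likelihood test, adjusted p = 0.0655). The unadjusted p of Hspa1a was 0.00891 with all 6 libraries and 0.0181 without αGlu 1 (edgeR quasi-likelihood test). That of Hspa1b was 0.0300 and 0.0279 (edgeR quasi-likelihood test), so neither gene had a much smaller unadjusted p without αGlu 1. In the fit without αGlu 1, 2290 genes were called in all, against 0 with all 6 libraries, and 10.5% of all genes tested were called lower. At an adjusted p under 0.1 without the fold limit, Hspa8 was also lower (log2 fold change -0.24, edgeR quasi-likelihood test, adjusted p = 0.0660) and Dnaja1 was higher (0.42, edgeR quasi-likelihood test, adjusted p = 0.0134), where 25.6% of all genes were lower and 23.5% higher. DESeq2 on all 6 libraries called the same 2 members, Hspa1a (adjusted p = 0.0217) and Hspa1b (adjusted p = 0.0398), where 3.92% of the genes with an adjusted p were called lower.

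**Figure D4:**
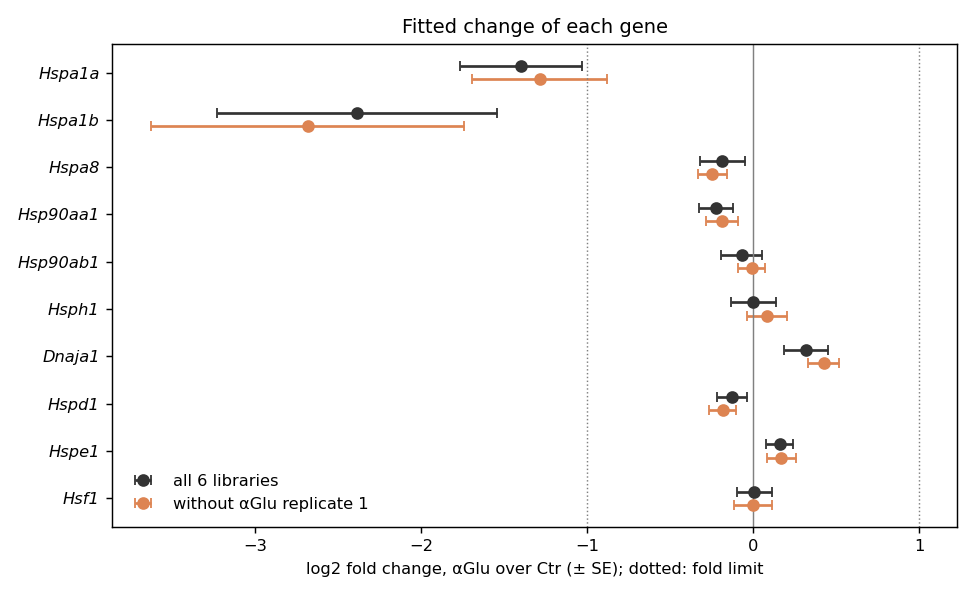
Fitted log2 fold change of each gene, αGlu over Ctr, with its standard error, in all 6 libraries and without αGlu 1; dotted lines mark the fold limit. Hspa1a (-1.40 and -1.28) and Hspa1b (-2.39 and -2.68) were the members past the limit in both fits.

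Around the members, 8 lists of related chaperones held 123 genes, of which 110 were tested. None was called with all 6 libraries in the edgeR test. Without αGlu 1, 4 were called lower and 0 higher, where 10.5% of all genes were called lower. These were Bag3, Sdf2l1, Calr and Serpinh1, the last 2 named after their values were seen. Serpinh1 was near the floor, at 52, 10 and 14 reads in the Ctr libraries and 13, 1 and 3 in αGlu, and its groups overlapped. DESeq2 on all 6 libraries called 1 lower, Bag3, where 3.92% of genes were. In the edgeR test on all libraries 26 had an unadjusted p under 0.05, 13 higher and 13 lower in αGlu, against the 12.7% and 11.9% of all genes given above. The median log2 fold change over the 110 genes was 0.04. The number of these genes rose to 58 without αGlu 1 and dropped to 6 without αGlu 2 or αGlu 3, to 7 without Ctr 1 and to 12 without Ctr 2.

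Among the other HSP70 proteins and their cofactors, 0 of 16 tested genes were higher and 5 lower at that limit, with a median log2 fold change of -0.12. Bag3, an HSP70 cofactor in selective autophagy, stood at 83.8, 88.8 and 64.6 CPM in the Ctr libraries and 54.3, 27.4 and 25.9 CPM in αGlu (log2 fold change -1.15; edgeR quasi-likelihood test, adjusted p = 0.158). Its αGlu libraries were all below the Ctr libraries, αGlu 1 least so. Without αGlu 1 it was called, with a log2 fold change of -1.57 (edgeR quasi-likelihood test, adjusted p = 0.000522), and DESeq2 called it on all libraries (-1.15, adjusted p = 0.0158). Stub1, the ubiquitin ligase CHIP that tags chaperone clients, had a log2 fold change of -0.20 (edgeR quasi-likelihood test, adjusted p = 0.160) and also no overlap. Of 17 other HSP40 proteins, 5 were higher and 1 lower, with Dnajc13, an endosomal protein, at 0.61 and the splicing-associated Dnajc8 at 0.38. Of 20 HSP90 co-chaperones, 2 were higher and 0 lower, namely Cacybp at 0.34 and Chordc1 at 0.26.

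Of 16 genes of the cytosolic chaperonin and prefoldin, which fold actin and tubulin, 3 were higher and 0 lower, among them the prefoldin subunits Pfdn1 at 0.59 and Pfdn6 at 0.34. Of 16 other mitochondrial chaperones and proteases, 2 were higher and 1 lower, including Hscb, a co-chaperone of iron-sulfur cluster assembly, at 0.59 and Grpel1, the exchange factor of mitochondrial HSP70, at -0.32. Only 3 of 10 small heat shock proteins passed the filter, with 0 at that limit in either direction, Hspb11 at 0.38 and Hspb6 at 0.55. Hspb1, a typical heat-inducible gene, had at most 3 reads in any library. Of the other heat shock factors and their regulators 3 of 7 were tested, with 0 at that limit, Hsbp1 at -0.15 and Hsf2 at 0.24.

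Endoplasmic reticulum chaperones, many of which answer to the unfolded protein response rather than to Hsf1, had 6 of 19 genes lower and 1 higher. That was at an unadjusted p under 0.05, where 11.9% of all genes tested were lower and 12.7% higher. The other HSP70 proteins and their cofactors had a similar share lower, 5 of 16. The median of the endoplasmic reticulum list was -0.32, and 16 of its 19 fitted changes were below 0. Over all genes tested the median was 0.02, and 5733 of 11933 were below 0. Without αGlu 1 the median was -0.45, 14 of the 19 were lower and 3 higher at an adjusted p under 0.1 (25.6% and 23.5% of all genes), and 3 were called lower. Sdf2l1, a partner of the luminal HSP70, stood at 74.1, 58.0 and 53.0 CPM in the Ctr libraries and 46.4, 22.4 and 24.7 CPM in αGlu (log2 fold change -0.99; edgeR quasi-likelihood test, adjusted p = 0.161). Without αGlu 1 its log2 fold change was -1.39 (edgeR quasi-likelihood test, adjusted p = 0.000972). Dnajc10, a reductase of the same compartment, was the 1 that was higher, at 0.35 (edgeR quasi-likelihood test, adjusted p = 0.157). The cytosolic and mitochondrial lists together had 12 genes higher and 7 lower of 91 tested, with a median of 0.07. Whether the lists differ from each other was not tested.

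**Figure D5:**
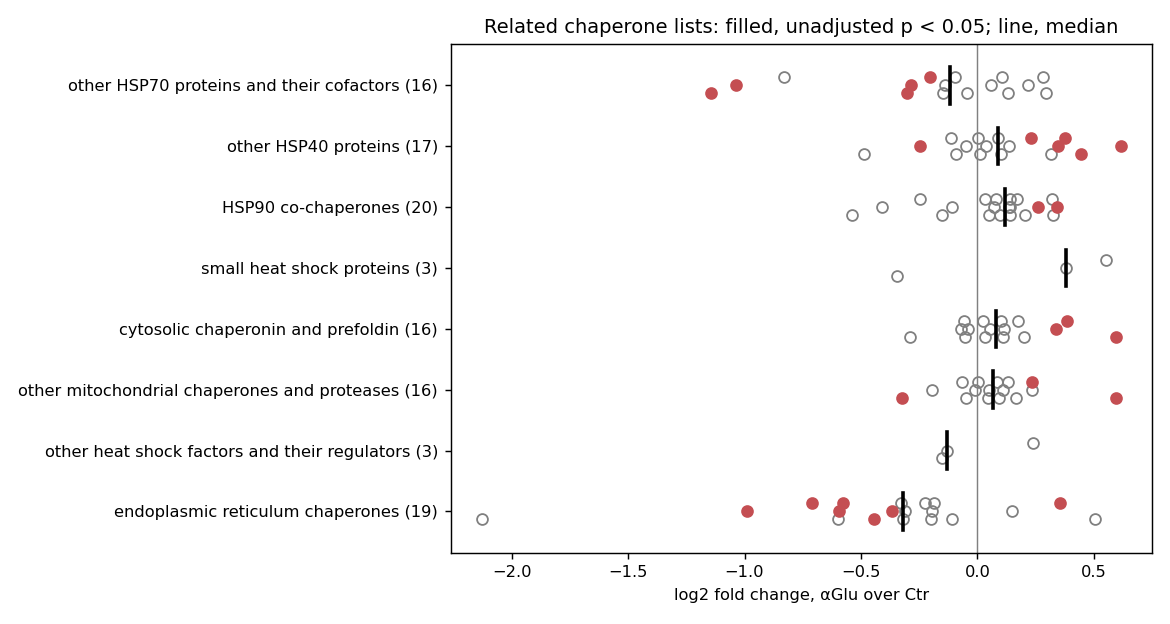
Fitted log2 fold change, αGlu over Ctr, of each tested gene in 8 lists of related chaperones, with the number tested beside the list name. Filled points had an unadjusted p under 0.05 and the vertical lines are list medians, from -0.32 for endoplasmic reticulum chaperones to 0.38 for the 3 small heat shock proteins.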

How the data were processed

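Stranded mRNA libraries of 6 samples were sequenced and processed by the authors in an online portal (QIAGEN RNA-seq Analysis Portal). The submitters' processing notes name GRCm38; aligner and annotation are not given in the sources used here. The deposited counts are whole reads per gene without normalization. The authors' RPKM and TPM values are scaled by length and depth, and the deposited CPM signal was not used for tests. All 24 value columns matched a library.

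Counts were filtered with filterByExpr (minimum count 10, minimum total 15), scaled by TMM factors and tested with the edgeR 4.0.16 quasi-likelihood model (R 4.3.3) with group as its only term. P-values were two-sided and Benjamini-Hochberg adjusted over 11933 genes. Calls required a log2 fold change beyond 1 in either direction together with an adjusted p under 0.1. Labels do not say which cultures share an animal or day, so p-values measure the spread between these libraries. Ratios of paired members were compared by exact permutation (20 arrangements). Motifs and sequences came from RefSeq (GRCm38.p6), gene positions and transcripts from GENCODE M21.

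The text names all 10 members and, in each of 8 related lists, the 2 tested genes with the smallest unadjusted p. Hspb1, Calr and Serpinh1 were named after their values were seen, and genes that share sequence with a member for that reason. Dnajb1 was named because its promoter was searched. Members and lists were chosen with earlier results of these data known. Alternatives were DESeq2 1.42.0, limma-voom (limma 3.58.1), other scalings, filters and thresholds, a replicate block, summed Hspa1 copies and each library left out. The fits were tested on simulated data, first at the adjusted p alone, where more false calls were made than that limit allows. The test was then limited to the call rule with its fold limit and to larger folds, which the edgeR quasi-likelihood fit passed. No pass limit was set for DESeq2 or limma-voom. The simulated spread was that of the Ctr libraries, so the test does not cover the wider spread among the αGlu libraries. Counts at an adjusted p without the fold limit are to be read with the excess of false calls in mind.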

Additional observations from a re-analysis of the deposited data

How the results depend on the processing

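The count of called members, 0 with all libraries, was 2 (Hspa1a and Hspa1b) under DESeq2 and also 2 at an adjusted p under 0.2 with no fold limit, and 0 to 2 with each library left out. The count with an unadjusted p under 0.05, which was 2, became 4 with library size alone, 5 under DESeq2, 1 under limma-voom and 1 with the copies summed, and 1 to 4 with each library left out (1 without Ctr 1, αGlu 2 or αGlu 3, and 4 without αGlu 1). The related genes at that limit, 26, ranged from 6 to 58 with each library left out. Members without overlap, 5, ranged from 4 to 7. The difference in the Hspa1b share, -8.10 percentage points, ranged from -19.2 to 3.04 and turned to 3.04 without Ctr 2. That of the Hsp90aa1 share ranged from -1.73 to -0.931 and that of the log2 ratio from 0.21 to 0.38. Among the single members, DESeq2 gave Hspa1a -1.41 and Hspa1b -2.39, and without αGlu 1 they were -1.28 and -2.68, all 4 called. The near-zero change of Hsph1 turned to -0.0022 with RLE factors, -0.0042 under DESeq2, -0.0050 under limma-voom and as low as -0.082 with a library left out, where it reached 0.11; that of Hsf1 ranged from -0.062 to 0.072, and that of Hsp90ab1 turned to 0.019 with library size alone. The causes were not tested. The median over all genes tested was 0.02, and 0.10 when scaled by library size alone. That scaling gave log2 fold changes of -0.10 for Hspa8, -0.14 for Hsp90aa1, -0.05 for Hspd1 and 0.25 for Hspe1, against -0.18, -0.22, -0.13 and 0.16. With the replicate number as a block, 0 members were called, 3 had an unadjusted p under 0.05 and 17 genes were called in all. Correlations of log2 expression around the group mean were 0.08, 0.06 and 0.15 for equal numbers and -0.11 to 0.05 for unequal numbers. Each equal pair was the highest for both of its libraries, though all values were small. The paper describes independent experiments and used a paired test for the level of the fragment after this transfection. The labels do not say that equal numbers share an experiment, so the block was kept as an alternative only. In the block the differences of the Hspa1b share, the Hsp90aa1 share and the log2 ratio were -8.10, -1.46 and 0.29 (exact sign-flip p = 1, 0.25 and 0.25, where 0.25 is the smallest possible). The low read counts of Hspa1a and Hspa1b limit what can be said of either copy.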
